A study of Mus musculus with 2 samples.

Results

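The transporters of the Slc2, Slc5, Slc13 and Slc16 families carry sugars, monocarboxylates such as lactate, dicarboxylates such as citrate and succinate, and sulfate across cell membranes. They were picked by a rule on gene symbols, set with earlier results of these data known. Of the 19505 genes with a symbol on the arrays, 42 belonged to them, each read by 1 probe set. Slc5a3 was not analysed here. RNA came from proximal tubular (PT) cells of wild-type mice and of PT-specific KAT5 knockout (KO) mice and was hybridised to Clariom S mouse arrays, 1 for each genotype. The KO mice carried γGT-Cre and homozygous KAT5 flox alleles on a C57BL/6J background, and the labels of both arrays give male mice aged 8 weeks. The wild-type sample is described by its genotype only, and how many mice each sample came from is not given in the sources used here. Cre was driven by γGT, whose activity is uneven between PT segments and highest in the last, so it need not act alike in all PT cells. The labels name no treatment other than the isolation, and although the labels give 8 weeks, their free text also speaks of embryos. KAT5 is a histone acetyltransferase that also acts in the repair of DNA double-strand breaks. PT cells were taken from minced kidney by removal of CD31-positive endothelial cells and magnetic selection for Prominin1.

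In the kidney, glucose that has been filtered at the glomerulus is taken up almost entirely by the PT. Sodium-coupled carriers of the Slc5 family move it from the lumen into the cell, and facilitated carriers of the Slc2 family let it leave on the blood side. The early PT uses SGLT2 (Slc5a2) with GLUT2 (Slc2a2), and the late PT uses SGLT1 (Slc5a1) with GLUT1 (Slc2a1). Lactate and ketone bodies are recovered by the sodium-coupled carriers Slc5a8 and Slc5a12 and by the proton-coupled carriers of the Slc16 family, and Slc13 carriers bring in citrate, other dicarboxylates and sulfate with sodium.

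Levels are given on the log2 scale as the authors deposited them, and a difference is KAT5 KO minus wild type, so that a difference of 1 is 2-fold. A level above 5.13 was taken as above background. On either array, at least 95% of 1448 genes for receptors of odorants, pheromones or taste, which kidney cells are not known for, lay at or under it. Lower levels were raised to it before a difference was taken. Where only 1 array lay above it, the difference is a lower bound and is given as "at least". Neither genotype was replicated, so errors and p-values are lacking, and precision is limited by having only 2 arrays. The receptor genes, without this raising, gave differences with an SD of 0.55. That SD describes dim probe sets only.

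The arrays were first checked against their labels. For Kat5 itself, the level was 10.20 in wild type and 8.67 in KAT5 KO, or 34.8% of the wild-type level. Whether its probe set reads the deleted exons is not given in the sources used here. Although both arrays are labelled male, the Y-linked genes Uty, Kdm5d and Eif2s3y lay under background on the KAT5 KO array, between 2.29 and 3.76. On the wild-type array these 3 genes stood at 9.84, 7.69 and 10.11. Of 15 PT markers that are not among the transporters, 13 were 2-fold or more higher on the KAT5 KO array, Kap was lower (-4.46) and Slc7a13 lay under background on both arrays. The median level of the 15 was 9.64 in wild type and 18.36 in KAT5 KO. Lrp2 (megalin) went from 12.17 to 18.84 and Cubn (cubilin) from 9.37 to 17.07. Markers of other cells were mostly lower. This held for 7 of 8 markers of the loop of Henle (median difference -3.87, Slc12a1 -4.55, Umod -4.28), 8 of 9 of the collecting duct (-3.58, Aqp2 -3.60, Aqp3 -1.44) and 4 of 5 of the distal convoluted tubule (-1.46, Slc12a3 -1.89, Pvalb -0.26). It also held for 7 of 8 markers of endothelium (-1.78, Pecam1 -0.73, Cdh5 -2.77), 10 of 12 of leukocytes (-2.20, Ptprc -2.20, Coro1a -2.10) and 4 of 7 of fibroblasts and mural cells (-1.65, Pdgfrb -1.89). Of 4 podocyte markers 1 was lower (-0.92, Nphs1 -1.22), and the erythroid gene Alas2 was lower (-2.77). These counts run over all markers on the arrays, and the median differences over those above background on at least 1 array. Among leukocyte, fibroblast and mural, and podocyte markers, some lay under background on both arrays and had no difference. Cldn10, also a loop of Henle marker, was higher (2.47). Umod stood at the highest value of the arrays in wild type, so its difference is a bound. Slc34a1 stood there in KAT5 KO. In bulk samples, fewer cells of a type and less RNA per cell cannot be told apart. The part of the cell mix and of sex in the differences below was not tested, and with 1 array per genotype neither can be told apart from the genotype.

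Most transporters that differed were higher on the KAT5 KO array. Among the 42, a difference of 2-fold or more was found upward for 19 and downward for 4, while 8 lay within 2-fold and 11 lay under background on both arrays. Those that were higher made up 45.2% of the 42, against 10.6% of all genes. Those that were lower made up 9.52%, against 9.51% of all genes, and so were no more frequent than among genes in general. The 4 lower genes were Slc16a7, Slc16a5, Slc2a1 and Slc2a4. As the 42 were chosen with earlier results of these data known, these shares are a description and not a test.

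Among the 25 transporters above background on both arrays, 15 were 2-fold or more higher, 4 were lower and 6 lay within 2-fold. Of all genes above background on both arrays, 18.2% were higher and 17.2% were lower. The median difference of the 25 was 3.73, against -0.04 over the 10090 such genes. A further 5 transporters lay above background on the KAT5 KO array only and 1 on the wild-type array only. Differences of 64-fold or more were seen for 9 of the 25, or 36.0%, against 1.13% of all such genes. Other solute carriers of the Slc and Slco families also tended to be higher, with 42.9% of 182 genes above background on both arrays 2-fold or more higher, 15.4% lower, and 8.24% higher by 64-fold or more. With 1 array per genotype the contrast between these carriers and the 42 genes could not be tested.

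**Figure D1:**
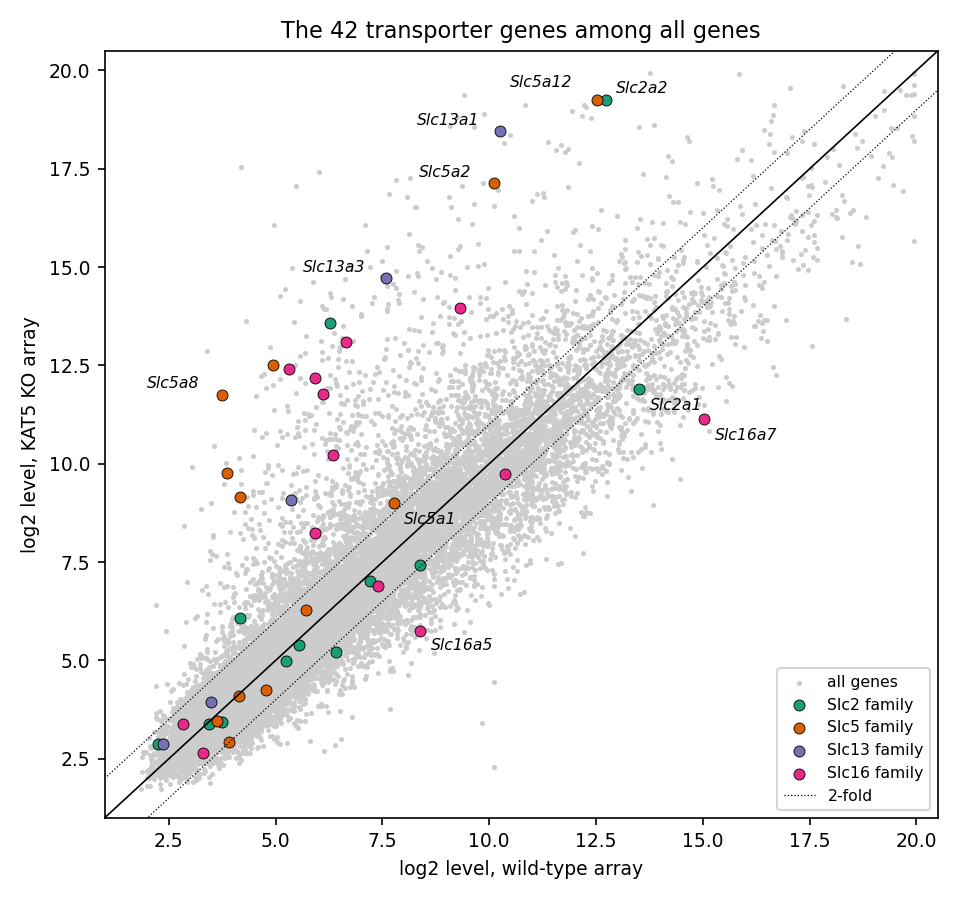
Log2 level on the wild-type array (x axis) against the KAT5 KO array (y axis) for all 19505 genes in grey and the 42 transporters in colour by family; the solid line marks equal levels and the dotted lines 2-fold. Slc13a1, Slc5a12, Slc2a2 and Slc5a2 lie far above the diagonal, Slc16a7, Slc16a5 and Slc2a1 lie below it, and the transporters at the lower left are under the background level of 5.13.

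The promoters of the transporters were searched for 2 motifs of factors known from the PT and liver, since many of the genes were higher together. The first was GTTAAT, which is 1 arm of the HNF1 palindrome, and the second was CAAAGTCCA, an HNF4 site, each on both strands and without overlap between them. Windows of 250 bases before the gene start were found in a RefSeq table (GRCm38.p6) for 32 of the 42 genes. GTTAAT was held by 2 of the 32 genes (6.25%), against 7.49% of all 27025 genes with a window. CAAAGTCCA was held by 0 of them, against 0.451% of all genes. With so few genes holding a motif, these counts cannot show whether the motifs were more or less frequent here than in general. CAAAGTCCA is so rare that 0 of 32 says little, and the 32 were not limited to the higher genes. The absence of the letters from a window says nothing of the factor. The 2 windows with GTTAAT belong to Slc5a10 and Slc16a10, both higher on the KAT5 KO array, and are shown 5′ to 3′ on the strand of the gene with the motif in capitals. That of Slc5a10 lies at chr11:61720800-61721049 on the minus strand, and the motif, in reverse, ends 70 bases before the start. That of Slc16a10 lies at chr10:40142255-40142504 on the minus strand, and the motif ends 227 bases before the start.
Slc5a10: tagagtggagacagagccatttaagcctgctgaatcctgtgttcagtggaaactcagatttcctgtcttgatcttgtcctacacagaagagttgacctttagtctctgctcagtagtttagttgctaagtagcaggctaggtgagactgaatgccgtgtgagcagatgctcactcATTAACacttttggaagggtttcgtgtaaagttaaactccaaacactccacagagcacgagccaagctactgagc
Slc16a10: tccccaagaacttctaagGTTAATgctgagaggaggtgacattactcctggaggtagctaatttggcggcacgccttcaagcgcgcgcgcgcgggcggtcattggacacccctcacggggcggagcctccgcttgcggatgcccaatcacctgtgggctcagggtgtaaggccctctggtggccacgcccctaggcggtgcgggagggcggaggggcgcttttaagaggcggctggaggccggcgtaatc

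The sodium-coupled sugar carriers were higher on the KAT5 KO array wherever they could be measured, but by very different amounts. Slc5a2 (SGLT2), which takes up the bulk of filtered glucose in the early PT, had a level of 10.11 in wild type and 17.14 in KAT5 KO, a difference of 7.03 (130.4-fold). Slc5a1 (SGLT1), the high-affinity carrier of the late PT, had levels of 7.77 and 9.01, a difference of 1.24 (2.36-fold). Thus SGLT2 lay further apart between the arrays than SGLT1, by 5.79 on the log2 scale. Slc5a10 (SGLT5), a mannose and fructose carrier of the kidney, was just under background in wild type (4.95), reached 12.51 in KAT5 KO and was at least 165.9-fold higher. Such floors depend on the background level, and with the 99th percentile of the receptor genes the bounds on the log2 scale fell from 7.37 to 6.61 for Slc5a10, from 6.63 to 5.87 for Slc5a8, from 4.63 to 3.87 for Slc5a11 and from 4.02 to 3.26 for Slc5a9. Slc5a9 (SGLT4), known as a mannose carrier, went from 4.16, under background, to 9.16 and was at least 16.26-fold higher. Slc5a4a and Slc5a4b, neighbouring genes of the glucose-sensing SGLT3 type, lay under background on both arrays, between 4.11 and 4.77. The pair are close relatives, so their probe sets may not be fully separate.

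The facilitated sugar carriers split in opposite directions. Slc2a2 (GLUT2), through which glucose leaves the PT cell on the blood side, had a level of 12.73 in wild type and 19.26 in KAT5 KO, a difference of 6.53 (92.3-fold). Slc2a5 (GLUT5), the fructose carrier, had levels of 6.28 and 13.58, a difference of 7.29 (157-fold). Both stood with SGLT2 on the higher side. Slc2a1 (GLUT1), a carrier found in many cell types and in the late PT, was lower, with levels of 13.52 and 11.90 and a difference of -1.62. Slc2a4 (GLUT4), the insulin-responsive carrier of muscle and fat, had levels of 6.41 and 5.21, a difference of -1.20, and its level on the KAT5 KO array lay close to background. When background was set at the receptor genes' 99th percentile, the difference of Slc2a4 was -0.51, within 2-fold. Slc2a3 (GLUT3), a high-affinity carrier of neurons and leukocytes, differed by -0.97, from 8.38 to 7.42, just short of 2-fold. On the same arrays, 10 of 12 leukocyte markers were lower, with a median level of 13.57 in wild type and 10.44 in KAT5 KO. Markers of other cells outside the PT were mostly lower too. The part of any of these cells in the values of GLUT1 and GLUT3 was not tested. Slc2a12 lay under background in wild type (4.17) and reached 6.07 in KAT5 KO, a bound of 0.94. Slc2a6 stood at 5.23 and 4.999, on either side of background. Of the carriers of this group, Slc2a7, Slc2a8 and Slc2a10 were under background on both arrays. Slc2a7 is the direct neighbour of Slc2a5 in the mouse genome and stood at 3.75 and 3.42.

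Of the 3 carriers of urate and myo-inositol, 1 was higher on the KAT5 KO array and 2 lay within 2-fold. Slc2a9 (GLUT9), a urate carrier, had levels of 7.21 and 7.02, and Slc2a13, a proton-coupled myo-inositol carrier, had levels of 5.54 and 5.38. Their differences were -0.19 and -0.15, but Slc2a13 lay close to background. Set at the receptor genes' 99th percentile or at the median of all probe sets, background exceeded Slc2a13 on both arrays. In contrast, Slc5a11 (SMIT2), a sodium-coupled myo-inositol carrier, was under background in wild type (3.86), reached 9.76 in KAT5 KO and was at least 24.8-fold higher. Of the remaining Slc5 genes, the multivitamin carrier Slc5a6 had levels of 5.71 and 6.29, within 2-fold. The iodide carrier Slc5a5 and the choline carrier Slc5a7 lay under background on both arrays.

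**Figure D2:**
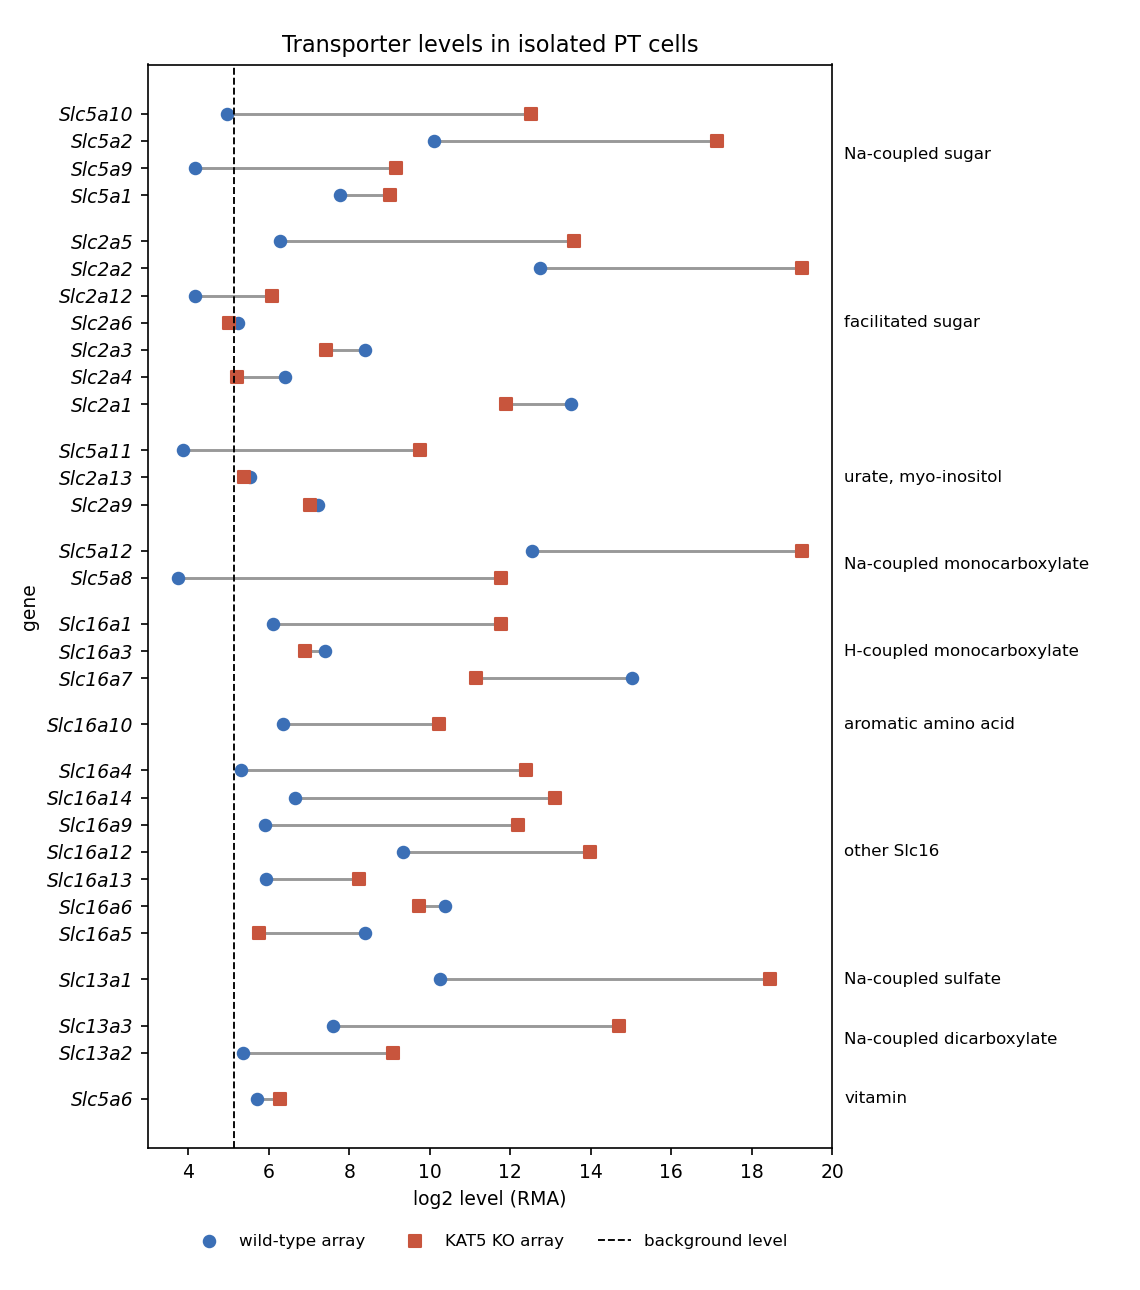
Log2 level (RMA, x axis) of the 31 transporters above background on at least 1 array, grouped by what they carry; circles are the wild-type array, squares the KAT5 KO array and the dashed line is the background level of 5.13. Sodium-coupled carriers have the square to the right. It lies to the left for Slc2a1, Slc2a3, Slc2a4, Slc16a5 and Slc16a7, and by less for Slc16a3, Slc16a6, Slc2a6, Slc2a9 and Slc2a13.

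Among the monocarboxylate carriers, MCT2 was lower on the KAT5 KO array, whereas the sodium-coupled pair and MCT1 were higher. Slc5a12 (SMCT2), a low-affinity lactate carrier of the early PT, had levels of 12.53 and 19.25, a difference of 6.72 (105-fold). Slc5a8 (SMCT1), the high-affinity carrier of the late PT, was under background in wild type (3.75), reached 11.76 in KAT5 KO and was at least 98.9-fold higher. The difference of Slc5a12 and the bound of Slc5a8 were nearly equal, and the difference of Slc5a8 itself may be larger. Slc16a1 (MCT1), the widespread proton-coupled carrier of lactate and ketone bodies, had levels of 6.11 and 11.77, a difference of 5.66 (50.7-fold). Slc16a7 (MCT2), a carrier with high affinity for pyruvate and lactate, had levels of 15.03 and 11.14, a difference of -3.89. Only 0.163% of the genes above background on at least 1 array had a more negative difference than Slc16a7. MCT1 and MCT2, which share substrates, thus lay 9.55 apart on the log2 scale in their differences. Slc16a3 (MCT4), the lactate exporter of glycolytic cells, had levels of 7.41 and 6.90, within 2-fold, and Slc16a8 (MCT3), known from the retinal pigment epithelium, was under background on both arrays. Lower MCT2 stood beside lower loop of Henle markers in 7 of 8 cases, while the marker Cldn10 was higher (2.47). The median level of these 8 went from 14.44 to 12.00, that of Slc12a1 from 17.55 to 12.99, and that of Umod from 19.93, the highest value on the arrays, to 15.65. Lower markers were not particular to the loop of Henle. Of the collecting duct markers, 8 of 9 were lower (median difference -3.58), as were 7 of 8 of endothelium and 10 of 12 of leukocytes. The part of any of these cells in the difference of MCT2 was not tested.

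The other members of the Slc16 family were also mainly higher. Slc16a10 (TAT1), which lets aromatic amino acids leave the cell, had levels of 6.34 and 10.23, a difference of 3.89 (14.8-fold). Slc16a12, a creatine carrier, had levels of 9.32 and 13.97, a difference of 4.65 (25.0-fold). The product of Slc16a9, linked to carnitine transport in humans, also belongs to this side, with levels of 5.91 and 12.19 and a difference of 6.28 (77.8-fold). For Slc16a4 and Slc16a14, whose substrates are not well known, the levels went from 5.31 to 12.40 and from 6.66 to 13.11, differences of 7.09 and 6.45. Slc16a13, whose locus is linked to type II diabetes in humans, had levels of 5.92 and 8.24, a difference of 2.32. Its direct neighbour in the genome, Slc16a11, was under background on both arrays, at 2.83 and 3.38. Against these, Slc16a5 (MCT6), a carrier of drugs, was lower, with levels of 8.39 and 5.74 and a difference of -2.65, and Slc16a6 (MCT7) had levels of 10.38 and 9.73, within 2-fold.

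All 3 Slc13 carriers that could be measured were higher on the KAT5 KO array. Slc13a1 (NaS1), the apical sodium-sulfate carrier of the PT, had levels of 10.25 and 18.45, a difference of 8.20 (294-fold), the largest among the transporters above background on both arrays. Slc13a3 (NaDC3), which takes up dicarboxylates on the blood side, had levels of 7.59 and 14.71, a difference of 7.12 (139-fold). Slc13a2 (NaDC1), which recovers citrate from the lumen, had levels of 5.36 and 9.09, a difference of 3.73 (13.3-fold), starting close to background. The dicarboxylate carriers of both membranes were therefore higher. The blood-side carrier had the larger difference, but that of Slc13a2 depends on the background level. With the receptor genes' 99th percentile as background, Slc13a2 fell under it in wild type and was higher by at least 3.20. Slc13a4, another sulfate carrier, and Slc13a5 (NaCT), the citrate carrier of liver, were under background on both arrays.

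By membrane side, all 6 carriers placed on the apical side of the PT (Slc5a1, Slc5a2, Slc5a8, Slc5a12, Slc13a1 and Slc13a2) were 2-fold or more higher. Of the 4 placed on the basolateral side, Slc2a2, Slc13a3 and Slc16a1 were higher and Slc2a1 was lower. By position along the PT, the 3 early carriers Slc5a2, Slc2a2 and Slc5a12 had differences between 6.53 and 7.03. The 3 late carriers ranged more widely, from -1.62 for Slc2a1 through 1.24 for Slc5a1 to the bound of 6.63 for Slc5a8. These lists hold few genes and leave out measured carriers such as Slc2a5, Slc5a10 and Slc2a9. Slc2a2 and Slc5a12 stood at 19.26 and 19.25 in KAT5 KO, near the highest value on the arrays (19.93). Slc2a1 is made in many other cell types. In all, 11 of the 42 transporters lay under background on both arrays, with levels between 2.26 and 4.77 on the wild-type array and between 2.65 and 4.25 on the KAT5 KO array. For these genes no difference was detectable, which does not show that they were level.

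**Figure D3:**
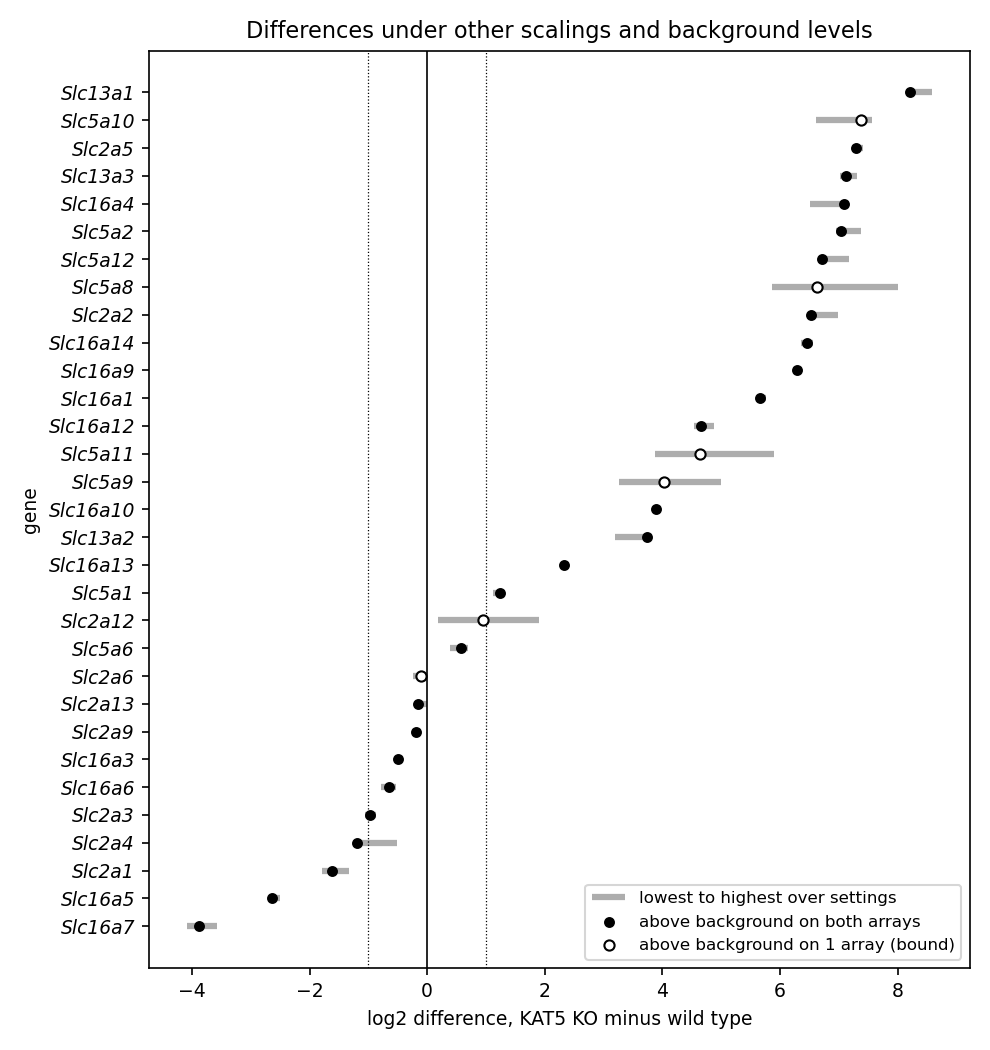
Log2 difference, KAT5 KO minus wild type (x axis), of the 31 transporters above background on at least 1 array; points are the values in the text, open points are bounds, and grey bars run from the lowest to the highest value over the scalings, background levels and probe set rules tried. The bars of the 19 higher genes all lie to the right of 1, whereas those of Slc2a4, Slc2a3 and Slc2a12 cross a dotted 2-fold line.

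The enzymes that handle the same solutes were then examined, each list counted over its genes on the arrays. All 7 genes of fructose use and glucose output were higher by at least 2-fold, and their median difference was 6.43. Pck1, Fbp1 and G6pc, enzymes of gluconeogenesis, were higher by 9.95, 9.11 and 8.997, and Slc37a4, which brings glucose 6-phosphate to the last step, by 6.43. GLUT2 and GLUT5, the sugar carriers next to these enzymes, had differences of the same order. Genes of glycolysis were split, with 4 of 12 higher and 5 lower and a median of 0.04. Hexokinase 1 (Hk1), which traps glucose in the cell, was lower (-3.51), as was pyruvate kinase Pkm (-2.77), whereas Pgk1 (3.17) and Gapdh (2.12) were higher. The lower hexokinase stood on the same side as GLUT1.

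Enzymes on the path of the carried acids were mostly higher too. Of 9 genes of lactate and ketone body use, 7 were higher and 1 lower (median 2.29). Bdh2, a hydroxybutyrate dehydrogenase, was higher by 5.98, the lactate dehydrogenases Ldhd and Ldhb by 4.21 and 2.46, and Acat1, of ketone body breakdown, by 2.44. Bdh1, on the same list, lay within 2-fold (-0.63). Of 13 genes of citrate and dicarboxylate metabolism, 12 were higher and 0 were lower (median 2.58). The mitochondrial dicarboxylate carrier Slc25a10 was higher by 5.21, malic enzyme Me1 by 4.96, the aconitase Aco1 by 3.54 and Mdh1 by 3.42. Beside these, the plasma membrane carriers Slc13a3 and Slc13a2 had differences of 7.12 and 3.73. Of 3 genes around myo-inositol, Miox, the oxygenase that opens the myo-inositol ring in the PT, was higher by 8.92 and Impa1 by 1.79, and Nfat5, which drives myo-inositol uptake under osmotic stress, was lower (-1.25).

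Of 5 genes for chaperones and scaffolds of these carriers, 4 were higher and 1 lower (median 2.09). Pdzk1, a scaffold of the brush border, went from 7.61 to 14.51, a difference of 6.91. Pdzk1ip1 (MAP17), the partner that SGLT2 needs for activity, went from 13.85 to 18.62, a difference of 4.77, and Slc9a3r1 (NHERF1) was higher by 2.09. Basigin (Bsg), the chaperone of MCT1 and MCT4, went from 16.13 to 17.73, a difference of 1.60, and was named after its value was seen. Embigin (Emb), the chaperone of MCT2, went from 11.10 to 9.36 and was lower (-1.74). Of 5 regulators, 3 were higher and 1 was lower (median 4.51). Hnf4a (6.30), Ppara (5.43) and Mlxipl (4.51), which encodes the sugar-responsive factor ChREBP, were higher, and Txnip, which lowers glucose uptake and is itself induced by glucose, was lower (-2.54). Pck1, Miox and Hnf4a are also on the list of PT markers.

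**Figure D4:**
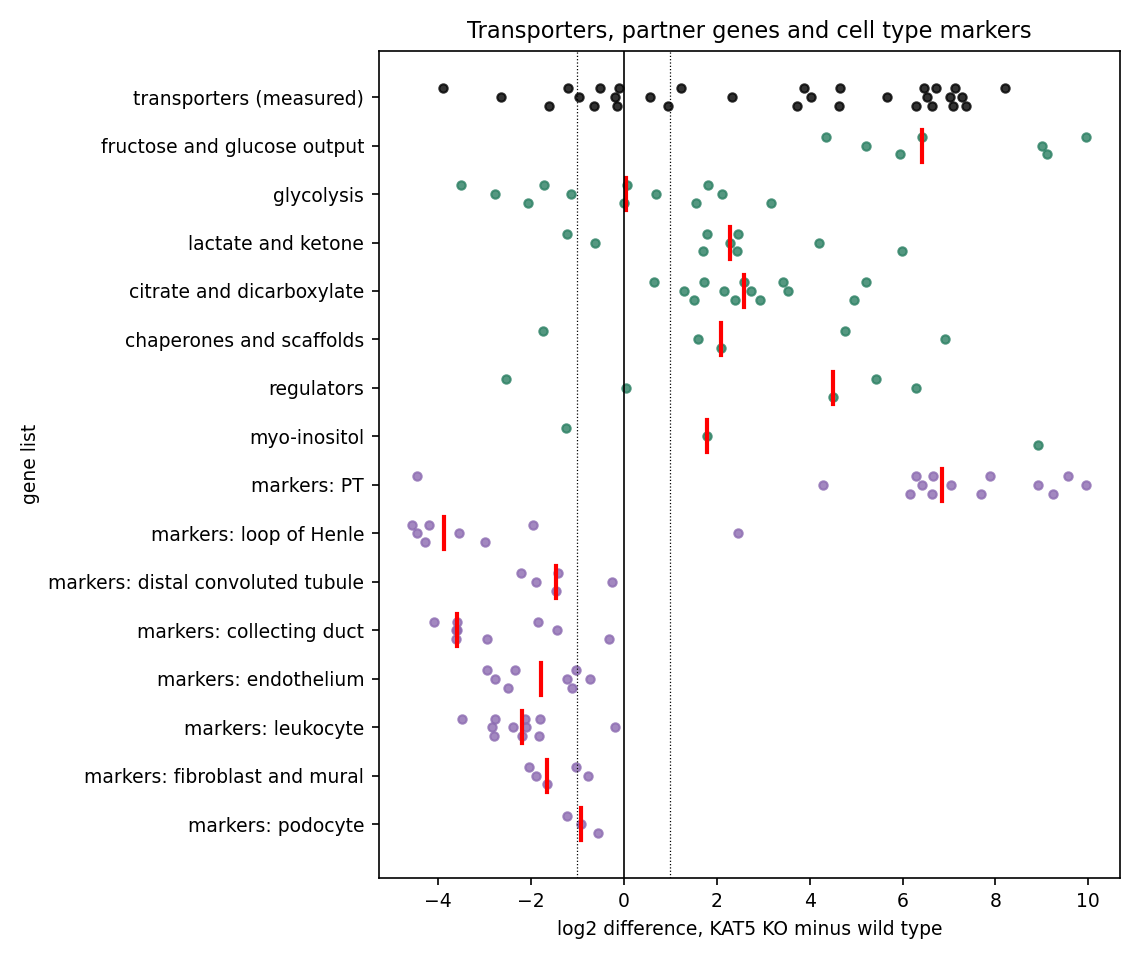
Log2 difference, KAT5 KO minus wild type (x axis), of each gene above background on at least 1 array, for the transporters (black), lists of partner genes (green) and cell type markers (purple); red bars are the medians of the lists other than the transporters, and dotted lines mark 2-fold. Glucose output genes and PT markers lie on the right with medians of 6.43 and 6.85, and markers of the loop of Henle (-3.87) and collecting duct (-3.58) on the left.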

How the data were processed

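RNA of isolated PT cells, 64 ng per array, was hybridised to 1 Clariom S mouse array per genotype. Per the submitters' processing notes, the authors used the Transcriptome Analysis Console and RMA. The deposited values are log2 levels for 28846 probe sets, from 1.33 to 19.93. Versions are not given in the sources used here. RMA normalizes between arrays, so a change shared by most genes would not be seen.

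Of the probe sets, 19572 carried 1 gene symbol in the platform annotation and 9274 carried none and were left out. Symbols beginning with Slc2a, Slc5a, Slc13a or Slc16a and a digit were the transporters. All 42 gene numbers and symbols were found in a RefSeq table. Levels were averaged over probe sets of a gene. A gene was measured when above the background level on at least 1 array (11652 genes), and was counted at a log2 difference of 1 or more in size. Of levels, only those of the same gene were compared. The members and lists, and the roles by which the genes were grouped, were chosen with earlier results of these data known. Named were all measured transporters, the 4 largest differences of each partner list, the first 2 markers of each cell type list where they were on the arrays, and Kat5 and 3 Y-linked genes as checks of the labels. Kap, Slc7a13, Cldn10, Bdh1, Bsg and the sole erythroid gene were named after their values were seen.

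The alternatives were median centring, quantile normalization, removal of a loess trend (span 0.3), background levels from the receptor genes' 99th percentile, from the median of all probe sets or none, the brightest probe set, and thresholds of 1.5-fold and 3-fold. The scaling and counting steps were tested on simulated arrays. There, only a small share of genes was changed, all well above background. The bounds, and the scaling of arrays on which as many genes differ as here, were therefore not tested. Python 3.11.15, numpy 2.4.6, pandas 2.3.3, statsmodels 0.14.6 and matplotlib 3.10.9 were used.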

Additional observations from a re-analysis of the deposited data

How the results depend on the processing

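With 1 array per genotype no array could be left out. No paired analysis was possible because each genotype has 1 array and the labels carry no replicate numbers. Across the scalings, background levels, probe set rules and fold thresholds tried, between 18 and 20 transporters were higher and between 3 and 6 were lower. Each of the 19 higher genes stayed 2-fold or more higher under every scaling, background level and probe set rule, and 3 of the 4 lower genes stayed lower. The exception was Slc2a4, at -0.51 with the 99th percentile background and -0.81 with the median of all probe sets. Slc2a12 ran from 0.18 to 1.90 and Slc2a3 from -1.05 to -0.88. With no background level the median difference was 0.60 over all 42 transporters, against 3.89 over the 31 above background on at least 1 array, because the 11 dim genes then enter. No value changed sign past 2-fold. The bounds of Slc5a8, Slc5a9, Slc5a10 and Slc5a11 and the differences of Slc16a4 (6.50) and Slc13a2 (3.20) were smaller with the 99th percentile background. The median of the urate and myo-inositol carriers went from -0.15 to 1.84 and 1.99 when Slc2a13 dropped out. Genes under 5.13 on 1 array have bounds only, and those under it on both have no difference.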
